A study of Mus musculus with 6 samples.

Results

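The miR-669 miRNAs are the largest of the miRNA families encoded inside the mouse gene Sfmbt2. They were taken as every entry of the deposited count table whose name begins with miR-669, which gave 30 of 1907 mature miRNAs. Of these, 12 carried the ending 5p and 14 the ending 3p, for the arm of the hairpin precursor from which the mature miRNA is cut, and 4 carried no arm (miR-669g, miR-669i, miR-669j and miR-669n). Small RNA was sequenced from mouse embryonic stem cells (ESCs) of 2 lines, RB18 and RB20, both established from C57BL/6 mice in R2i and each grown in 3 media for more than 10 passages. Serum medium held 15% fetal bovine serum. The serum-free N2B27 medium was used either as 2i, with the MEK inhibitor PD0325901 at 1 µM and the GSK3 inhibitor CHIR99021 at 3 µM, or as R2i, with PD0325901 at 1 µM and the TGF-β receptor inhibitor SB431542 at 10 µM. All 3 media contained leukemia inhibitory factor at 1000 U/ml, and all cells grew on gelatin. Each of the 6 libraries was made from a pool of 3 cultures, so that a medium had 2 libraries, 1 per line, and p-values measure the spread between 2 lines.

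A miRNA gene is transcribed as part of a longer RNA, from which a hairpin is excised and then cut to a short duplex. Either strand of the duplex can be loaded into an Argonaute protein, where bases 2 to 8 of the miRNA, the seed, pair with target mRNAs. Sfmbt2 encodes a Polycomb group protein and is imprinted, with expression from the paternal allele in the early embryo and in extraembryonic tissues. One of its introns carries a large cluster of repeated miRNA genes found in rodents, to which the miR-669, miR-467, miR-466 and miR-297 families belong, and which is known for its role in the placenta. ESCs in serum are a heterogeneous population, whereas 2i and R2i hold the cells in the more uniform ground state of pluripotency.

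The GENCODE annotation of GRCm38, which is the mm10 build named by the submitters, contains 30 Mir669 genes, and 29 of these lie inside Sfmbt2 on the same strand (chr2:10370510-10595253, plus strand). The 29 genes occupy 51.1 kb, from chr2:10467229 to chr2:10518279. They fall in 1 intron, numbered 10 or 11 by the transcript used, together with 23 miR-466, 14 miR-467 and 5 miR-297 genes. The name miR-669a covers 12 genes, miR-669d, miR-669m and miR-669p cover 2 each, and every other letter covers 1. In the middle of the array, 11 genes from Mir669a-4 to Mir669a-12, with Mir669p-1 and Mir669p-2 among them, follow each other at distances of 2.41 to 2.47 kb from start to start. The repeat of the locus is thus visible in the gene positions, and copies of 1 name cannot be told apart in the count table. Counts of closely related members are likewise uncertain, because how reads matching several miRNA genes were counted is not given in the sources used here.

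The remaining gene, Mir669n, lies on chromosome 3, outside Sfmbt2, and is the family member for which RefSeq (GRCm38.p6) gave a mature sequence, 1 of 30 names matched. It is shown 5′ to 3′ with its seed in capitals, as the family member that stands apart in location, and it covers chr3:115979905-115979924 on the plus strand.
miR-669n: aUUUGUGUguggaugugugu
No read was assigned to miR-669n in any library. With library totals between 1041858 and 3593356, a count of 0 allows up to 3 counts, or from 0.835 to 2.88 CPM, the number of counts scaled to a common library total.

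Across the whole table, 1233 miRNAs had at least 1 count, and 571 passed the filter on low counts and were tested. The ESC miRNAs miR-290 to miR-295 took 33.5% to 43.5% of the counts of every library. Counts of miR-302 and miR-367, a cluster active in pluripotent cells, took 0.219% to 0.298% of serum, 0.392% to 0.658% of 2i and 0.798% to 1.96% of R2i libraries. Summed levels of 20 marker miRNAs of other lineages (fibroblast, muscle, blood, neural and endoderm) were 7133 to 7219 CPM in serum, 7984 to 10515 CPM in 2i and 5989 to 6767 CPM in R2i, with the blood marker miR-223-3p at 0 throughout. Of the 16 tested, both muscle markers were called lower and 1 blood marker higher in ground state. Muscle markers summed to 83.1 and 41.9 CPM in serum (RB18 and RB20) against at most 8.64 CPM in the other libraries. Fibroblast markers summed to 1499 and 1841 CPM in serum, 3331 and 3554 CPM in 2i, and 2702 and 2358 CPM in R2i. Blood markers summed to 3360 and 2935 CPM in serum, 5190 and 2024 CPM in 2i, and 1662 and 736 CPM in R2i. Neural markers ranged from 423 to 801 CPM and endoderm markers from 1468 to 2404 CPM over the 6 libraries. In bulk RNA of this kind, fewer cells of a type and less RNA per cell cannot be told apart, and the part of such markers in the results on miR-669 was not tested.

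Reads of the miR-669 family were scarce in ground-state ESCs and several times more frequent in serum. In serum the family received 10883 counts in RB18 and 13588 in RB20, which was 0.624% (95% Wilson interval 0.612% to 0.636%) and 0.606% (0.596% to 0.616%) of the libraries. In 2i the share was 0.0828% (0.0790% to 0.0868%) in RB18 and 0.0742% (0.0713% to 0.0772%) in RB20. In R2i it was 0.149% (0.141% to 0.156%) in RB18 and 0.136% (0.132% to 0.140%) in RB20. Both lines therefore showed one order, with serum highest, R2i between and 2i lowest, and the lines differed far less than the media did. The mean share in serum was 7.83 times that in 2i (7.53 in RB18 and 8.16 in RB20) and 4.32 times that in R2i (4.20 and 4.46). R2i in turn exceeded 2i by 1.81 times (1.80 and 1.83). These intervals cover counting error only, and with 2 libraries against 2 an exact two-sided permutation test of a share cannot go below p = 0.333.

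Most of these reads came from few members. miR-669a-5p, the 5p product of the 12 miR-669a genes, contributed 31.5% and 30.4% of the family in serum (RB18 and RB20), 39.1% and 37.0% in 2i, and 37.0% and 37.7% in R2i. The 4 most abundant members (miR-669a-5p, miR-669c-5p, miR-669a-3p and miR-669m-5p) took 65.6% to 69.0% of the family in each library, and the 12 most abundant took 97.0% to 97.5%. The shares of single members were not equal in the 3 media. That of miR-669a-5p was lower in both serum libraries than in the 4 others, whereas miR-669e-5p took 3.73% and 3.23% of the family in serum against 1.92% to 2.45% in the others, and miR-669l-5p took 6.55% and 5.84% against 3.64% to 5.34%. Even so, in serum miR-669a-5p ranked 58th and 57th among all miRNAs of RB18 and RB20, against 136th and 145th in 2i and 107th and 108th in R2i.

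Expression of miR-669a-5p was 1874 and 2049 CPM in serum (RB18 and RB20, after scaling of the libraries by TMM), 324 and 282 CPM in 2i, and 492 and 527 CPM in R2i. miR-669c-5p, the product of a single gene, followed with 718 and 1114 CPM in serum, 86.5 and 86.1 CPM in 2i, and 176 and 172 CPM in R2i. The third, miR-669a-3p, from the opposite arm of the miR-669a hairpins, stood at 850 and 831 CPM in serum, 100.1 and 91.0 CPM in 2i, and 154 and 124 CPM in R2i. In each of these 3 members the libraries of the media did not overlap, and R2i lay between serum and 2i. An order of serum above R2i above 2i without overlap was found in 14.7% of the 571 tested miRNAs. Among the first 12 members, the lines differed most in serum for miR-669c-5p (mean 916 ± 280 CPM, SD, n = 2).

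miR-669m-5p reached 464 and 553 CPM in serum, 60.7 and 58.3 CPM in 2i, and 94.4 and 113 CPM in R2i. Levels of miR-669l-5p were 390 and 394 CPM in serum, 30.1 and 32.4 CPM in 2i, and 62.6 and 74.7 CPM in R2i. The 2 genes of miR-669p together gave miR-669p-5p levels of 323 and 357 CPM in serum, 56.4 and 49.2 CPM in 2i, and 74.6 and 98.7 CPM in R2i. Thus miR-669l-5p stood above miR-669p-5p in serum and below it in 2i and R2i, with the libraries of both lines in that order. The remaining 6 of the first 12 (miR-669o-5p, miR-669b-5p, miR-669d-5p, miR-669e-5p, miR-669f-5p and miR-669o-3p) had means from 79.3 ± 7.67 to 298 ± 21.4 CPM in serum, from 8.68 ± 1.47 to 51.1 ± 2.69 CPM in 2i and from 14.3 to 73.9 CPM in R2i (SD, n = 2 each). All 6 showed the same order of media without overlap between libraries (14.7% of tested miRNAs).

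**Figure D1:**
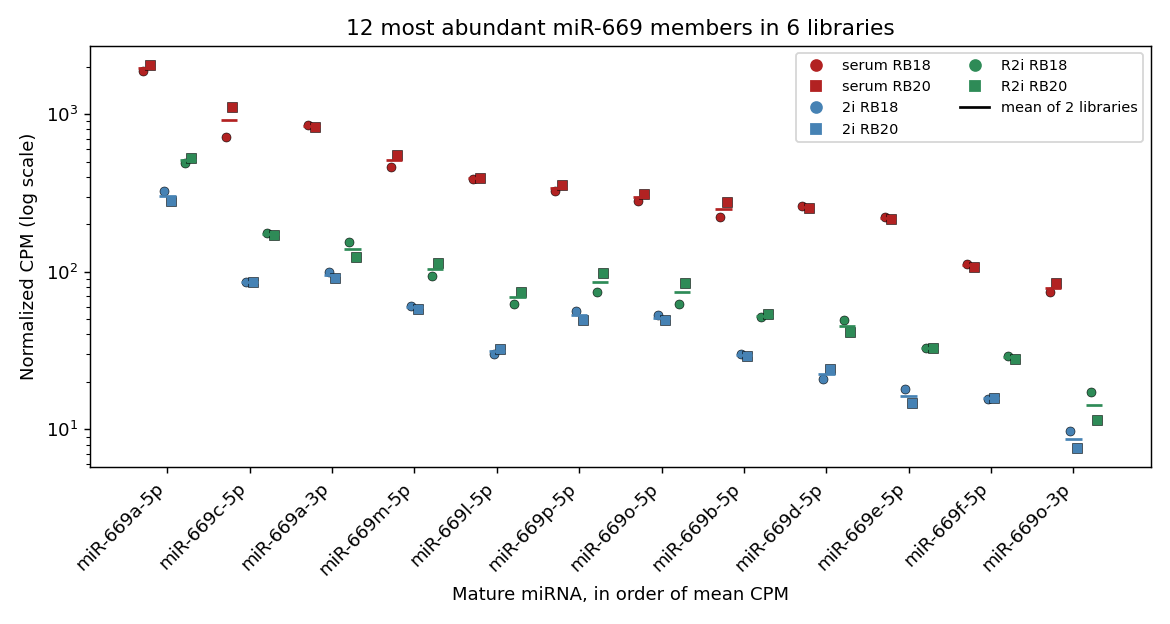
Normalized CPM (log axis) of the 12 most abundant miR-669 members in each of the 6 libraries, with circles for RB18, squares for RB20, colors for the media and a short line at the mean of the 2 libraries of a medium. For every member plotted, both serum libraries lie above both R2i libraries, and these lie above both 2i libraries. This order was found in 14.7% of all tested miRNAs.

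Per annotated gene, the order of abundance was different. Dividing the level of each 5p miRNA by the number of its genes gave 916 CPM in serum for miR-669c-5p and 392 CPM for miR-669l-5p, whereas miR-669a-5p, first in total, came to 163 CPM per gene. miR-669h-5p, whose gene is the last of the array, gave 50.8 CPM, and miR-669k-5p gave 1.27 CPM. Single genes of the array thus differed widely in the reads assigned to their 5p product, although they share an intron. Such levels assume that every annotated copy is used and that reads were assigned to the right name, neither of which the counts show.

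Of the 30 members, 25 had at least 1 count and 19 passed the filter (11 of 12 with 5p and 8 of 14 with 3p). The 5 members with no count in any library were miR-669c-3p, miR-669i, miR-669j, miR-669k-3p and miR-669n. The 6 members with counts that were not tested were miR-669b-3p (7 and 6 counts in serum, 0 and 3 in 2i, 2 and 4 in R2i), miR-669d-3p (6 and 8, 0 and 2, 0 and 1), miR-669d-2-3p (3 and 4, 1 and 6, 0 and 4), miR-669k-5p (1 and 4, 1 and 0, 1 and 1), miR-669g (1 count each in serum and R2i of RB20) and miR-669h-3p (1 count in 2i of RB18). A member could pass the filter through serum alone, so the counts below describe the members that passed and not the family as a whole. The 12 most abundant members and miR-669f-3p had 10 or more counts in all 6 libraries.

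The first comparison asks how the family differs between 2i and serum. All 19 tested members were called lower in 2i, against 17.3% of the 571 tested miRNAs called in that direction. A call required a change of over 2-fold and an adjusted p under 0.01 by edgeR's quasi-likelihood test. Their median log2 fold change was -3.09, beside -0.03 over all tested miRNAs. Among well-counted members the change was largest for miR-669e-5p (222 and 218 CPM in serum, 18.0 and 14.7 CPM in 2i), with a log2 fold change of -3.76 ± 0.26 (SE, adjusted p = 6.86e-05). It was followed by miR-669l-5p at -3.64 ± 0.26 (adjusted p = 6.86e-05). The smallest changes were those of miR-669f-3p (41.6 and 33.2 CPM in serum, 9.23 and 5.80 CPM in 2i) at -2.34 ± 0.34 and of miR-669o-5p (283 and 313 CPM in serum, 53.0 and 49.2 CPM in 2i) at -2.54 ± 0.26. miR-669p-5p came next at -2.69 ± 0.26. Fitted changes were therefore unequal on the log2 scale, with 5p members near both ends of the range, and differences between members were not tested.

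miR-669l-3p had the most extreme fitted value, -4.42 ± 0.86, with 12 and 23 counts in serum and 0 and 2 counts in 2i. From the summed counts, its share in serum was 23.8 times that in 2i, with a 95% interval for counting error of 6.11 to 204. Its fold change was therefore poorly determined. Calls for 4 scarce members in this comparison, miR-669l-3p and miR-669p-3p as well as miR-669e-3p and miR-669m-3p, were each lost under at least 1 alternative setting. Without the 2i library of RB20, all 4 were lost and 15 of 19 members remained called. None of the 12 most abundant members lost its call in any of the 17 settings tried.

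**Figure D2:**
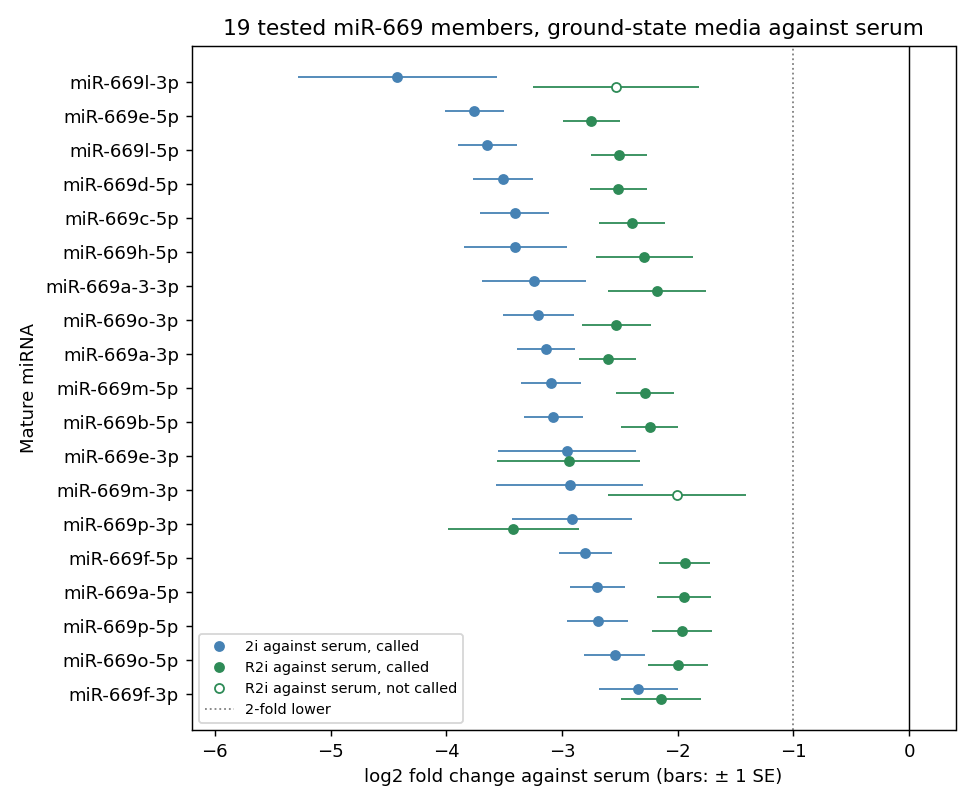
Log2 fold change against serum of the 19 tested miR-669 members, in 2i (blue) and R2i (green), with bars of 1 SE, filled points for called members and open points for those not called. Points lie between -4.42 and -2.34 in 2i and between -3.42 and -1.94 in R2i, all beyond the dotted line of a 2-fold decrease.

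R2i was compared with serum next, with the same serum libraries, so the 2 comparisons are not independent of each other. Here 17 of 19 tested members were called lower, against 15.6% of all tested miRNAs, and the median log2 fold change was -2.29, beside -0.07 over all tested. miR-669e-5p (32.6 and 32.9 CPM in R2i) changed by -2.75 ± 0.24 (adjusted p = 0.000164). Larger fitted values belonged to miR-669p-3p, with 34 and 28 counts in serum and 1 and 6 in R2i (-3.42 ± 0.57, adjusted p = 0.00171), and to miR-669e-3p, with 26 and 34 counts in serum and 3 and 6 in R2i (-2.94 ± 0.62, adjusted p = 0.00586). The change of miR-669e-3p missed the threshold with the cell line as a block (adjusted p = 0.0117). The scarce 3p members thus gave the widest errors again.

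At the other end stood miR-669f-5p (112 and 108 CPM in serum, 29.2 and 28.0 CPM in R2i) at -1.94 ± 0.22, miR-669a-5p at -1.95 ± 0.23 and miR-669p-5p at -1.96 ± 0.26, with adjusted p of 0.000316, 0.000372 and 0.000561. The 2 members not called were miR-669l-3p (2 and 5 counts in R2i, log2 fold change -2.53 ± 0.72, adjusted p = 0.0228) and miR-669m-3p (21 and 13 counts in serum, 3 and 7 in R2i, -2.01 ± 0.60, adjusted p = 0.0284). Leaving out single libraries brought the number called down to 12 (without R2i of RB20), 13 (without R2i of RB18 or serum of RB18) or 14 (without serum of RB20), and the calls lost were those of miR-669a-3-3p, miR-669e-3p, miR-669f-3p, miR-669h-5p and miR-669p-3p. None of the 12 most abundant was among them.

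Taking 2i and R2i together as the ground state, all 19 members were called lower than in serum, against 20.0% of tested miRNAs, with a median log2 fold change of -2.85. The largest change of a member with 10 or more counts in every library was again that of miR-669e-5p, at -3.25 ± 0.19 (adjusted p = 3.38e-05). For miR-669a-5p it was -2.32 ± 0.19 (adjusted p = 4.49e-05). Serum libraries lay above both 2i libraries in 19 of 19 tested members (38.5% of tested miRNAs) and above both R2i libraries in 19 of 19 (38.2%). For miR-669e-3p, miR-669l-3p, miR-669m-3p and miR-669p-3p this order was largely set by the filter. They had at most 7 counts in any 2i or R2i library and passed through serum. Among the 13 members with 10 or more counts in every library, 13 were called lower in 2i and 13 in R2i. In all, 402 miRNAs met this count limit. The share of them called lower is not given here, so these calls describe the members only.

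Both lines carried the change. Within RB18 the median log2 difference between 2i and serum over the 19 members was -2.92, with a range of -3.82 to -1.92, and within RB20 it was -3.23, with a range of -3.85 to -2.01. For R2i against serum the medians were -2.16 and -2.39. No difference between the lines in the change from serum to ground state was called for any member (0 of 19 called, 0 at an unadjusted p under 0.05 in the edgeR interaction test, and no other tool was run). The lowest of these p-values, 0.168 before adjustment, belonged to miR-669e-3p, with a difference of -1.42 ± 0.89. Over all tested miRNAs, 0 of 571 were called and 27 had an unadjusted p under 0.05. The interaction test took 2i and R2i of a line as repeats of the ground state, so the difference between these media counted as spread. For miR-669a-5p its SE was 0.70, against 0.19 for the change from serum to ground state. With 1 serum library per line as well, the interaction test could miss a difference between lines, and its lack of calls does not show that the lines agreed. Between the lines in 1 medium, 3 members differed by more than 2-fold, each in 2i and each with at most 12 counts per library there (miR-669a-3-3p, miR-669e-3p and miR-669l-3p). Over all 571 tested miRNAs, 104 differed by more than 2-fold between the lines in serum, 50 in 2i and 66 in R2i.

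R2i and 2i differ in the second inhibitor, SB431542 in place of CHIR99021, and the family stood higher in R2i. The difference did not pass the threshold for any single member: 0 of 19 were called, against 0% of tested miRNAs called higher in R2i and 0.350% called lower. All the same, 18 of 19 members had a fitted log2 fold change above 0 (49.2% of tested miRNAs), with a median of 0.83 beside -0.01 over all tested. At an unadjusted p under 0.05, 9 members were higher in R2i (10.7% of tested miRNAs), all with the ending 5p, and 0 were lower (7.53%). This count of 9 dropped to 5 without 2i of RB20 and to 6 without 2i of RB18 or R2i of RB20, and limma gave 13. miR-669l-5p came closest to the threshold, with a log2 fold change of 1.14 ± 0.24 (adjusted p = 0.0714), followed by miR-669e-5p at 1.01 ± 0.25 (adjusted p = 0.112). DESeq2 called 2 members, miR-669c-5p and miR-669l-5p, whereas limma on the deposited log2 values called 0. How many of all tested miRNAs DESeq2 called is not given here.

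Both R2i libraries lay above both 2i libraries in 16 of 19 members, against 27.1% of tested miRNAs. The complete order of serum above R2i above 2i without overlap was found in the same number, 16 of 19, against 14.7%. The 3 members without this order were the 3p miRNAs miR-669e-3p (3.40 and 0.916 CPM in 2i, 2.57 and 1.72 CPM in R2i), miR-669f-3p (9.23 and 5.80, 8.58 and 8.30 CPM) and miR-669p-3p (2.92 and 1.53, 0.858 and 1.72 CPM). These levels correspond to at most 29 counts per library, and miR-669p-3p, at -0.51 ± 0.70, was the only tested member with a fitted value below 0. Within the lines, the median difference between R2i and 2i was 0.79 in RB18 and 0.80 in RB20. All 11 tested 5p members were higher in R2i in both lines, and so were 5 of 8 tested 3p members, beside 34.7% of all tested miRNAs.

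**Figure D3:**
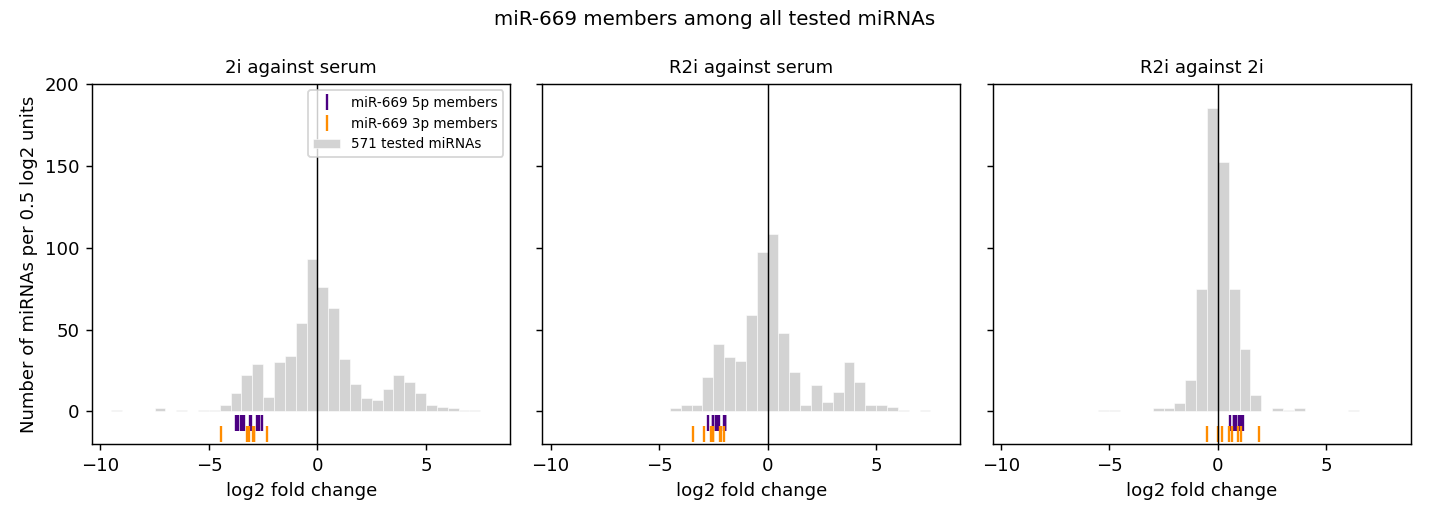
Number of tested miRNAs per 0.5 log2 units of fold change (gray bars, 571 miRNAs, members included) for the 3 comparisons, with a tick under the bars for each tested miR-669 member, purple for 5p and orange for 3p. The ticks lie between -4.42 and -2.34 in 2i against serum, between -3.42 and -1.94 in R2i against serum and between -0.51 and 1.89 in R2i against 2i.

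The 2 arms of a hairpin could be set side by side for 7 letters with both arms tested. In 2i against serum the 3p log2 fold change lay below that of the 5p arm for 4 of 7 letters, and in R2i against serum for 6 of 7, with median differences of -0.22 and -0.21. In 2i the difference exceeded the standard error of the 3p member for 4 of 7 letters. The 3p arm lay lower for miR-669a and miR-669o and higher for miR-669e and miR-669f. In R2i the difference exceeded it for 3 of 7 (miR-669a, miR-669o and miR-669p), each with the 3p arm lower. The error of the 5p member was not included, and the difference was not tested. miR-669a had the deepest counts on both arms, and its 3p arm took 31.2% (95% Wilson interval 29.9% to 32.5%) and 28.9% (27.7% to 30.0%) of miR-669a counts in serum. In 2i it took 23.6% (20.9% to 26.5%) and 24.4% (22.1% to 26.9%), and in R2i 23.8% (20.9% to 27.0%) and 19.0% (17.4% to 20.7%). The 3p share of miR-669a was thus higher in both serum libraries than in the 4 ground-state libraries, a split for which the smallest two-sided exact permutation p is 0.133. These shares set miR-669a-3p beside miR-669a-5p only. The separately named miR-669a-3-3p (47 and 54 counts in serum, 3 and 12 in 2i, 8 and 18 in R2i) was left out of them.

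Other letters did not show this separation. For miR-669o the 3p share of the serum libraries was 20.7% and 21.3%, that of the 2i libraries 15.5% and 13.4%, and that of the R2i libraries 21.5% and 11.8%, so that 1 R2i library exceeded both serum libraries. For miR-669f these shares were 27.1% and 23.6% (serum), 37.3% and 26.8% (2i) and 22.7% and 22.8% (R2i), with overlapping intervals. miR-669c was at the other extreme, with 0 counts of its 3p arm beside 1311 and 2248 of its 5p arm in serum, which allows a 3p share of at most 0.292% and 0.171% (upper Wilson bounds). Over all members named by arm, 3p counts made up 17.6% (RB18) and 15.3% (RB20) of family counts in serum libraries, 15.6% and 15.2% of 2i and 14.7% and 11.3% of R2i.

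**Figure D4:**
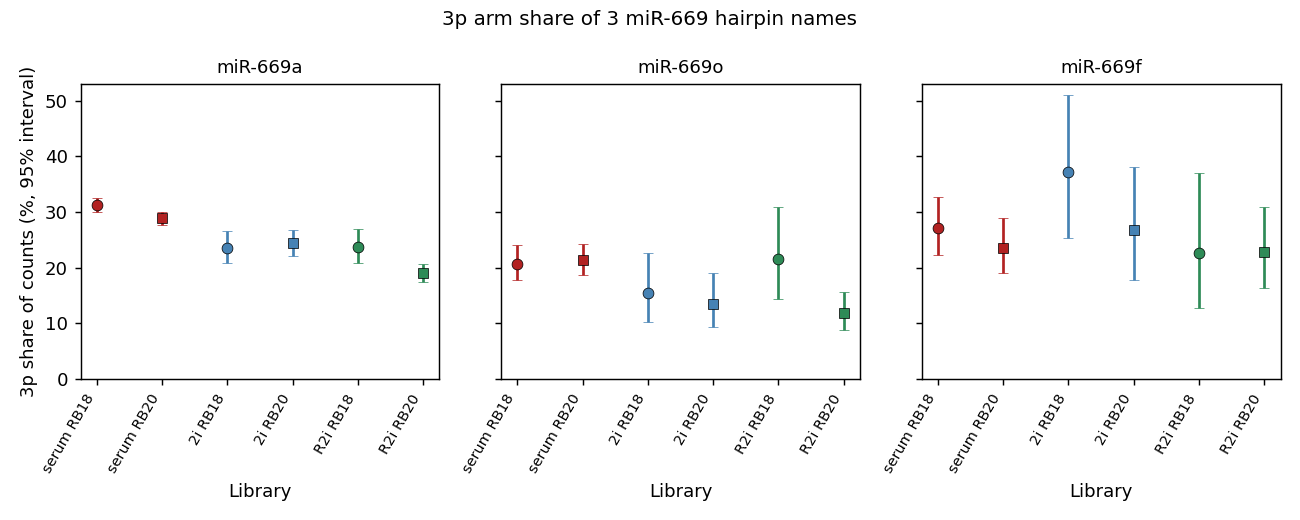
Share of 3p counts among 5p and 3p counts of miR-669a, miR-669o and miR-669f in each library, in percent, with 95% Wilson intervals as bars. Counts of miR-669a-3-3p are not included. For miR-669a the serum libraries, at 31.2% and 28.9%, lie above the 4 others, which range from 19.0% to 24.4%, while the intervals of miR-669f overlap.

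Along the array, members of single genes at both ends were lower than in serum, while the names with several genes gave 1 value for all their positions. At the 5′ end, Mir669f (96.7 kb from the annotated start of Sfmbt2) and Mir669e (97.0 kb) are direct neighbors, and their 5p miRNAs changed by -2.80 ± 0.23 and -3.76 ± 0.26 in 2i against serum. Mir669l (98.5 kb) gave -3.64 ± 0.26 for its 5p arm. At the 3′ end, Mir669o (143.8 kb) gave -2.54 ± 0.26 and Mir669h (147.6 kb) -3.40 ± 0.44 for theirs. Fitted values thus differed between direct neighbors, while those of single genes toward the ends of the array overlapped in range. Mir669b (97.3 kb) and Mir669c (138.8 kb) gave -3.08 ± 0.25 and -3.41 ± 0.30 for their 5p arms in 2i against serum. No difference by position was tested. In R2i, the neighbors miR-669f-5p and miR-669e-5p stood at -1.94 and -2.75.

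**Figure D5:**
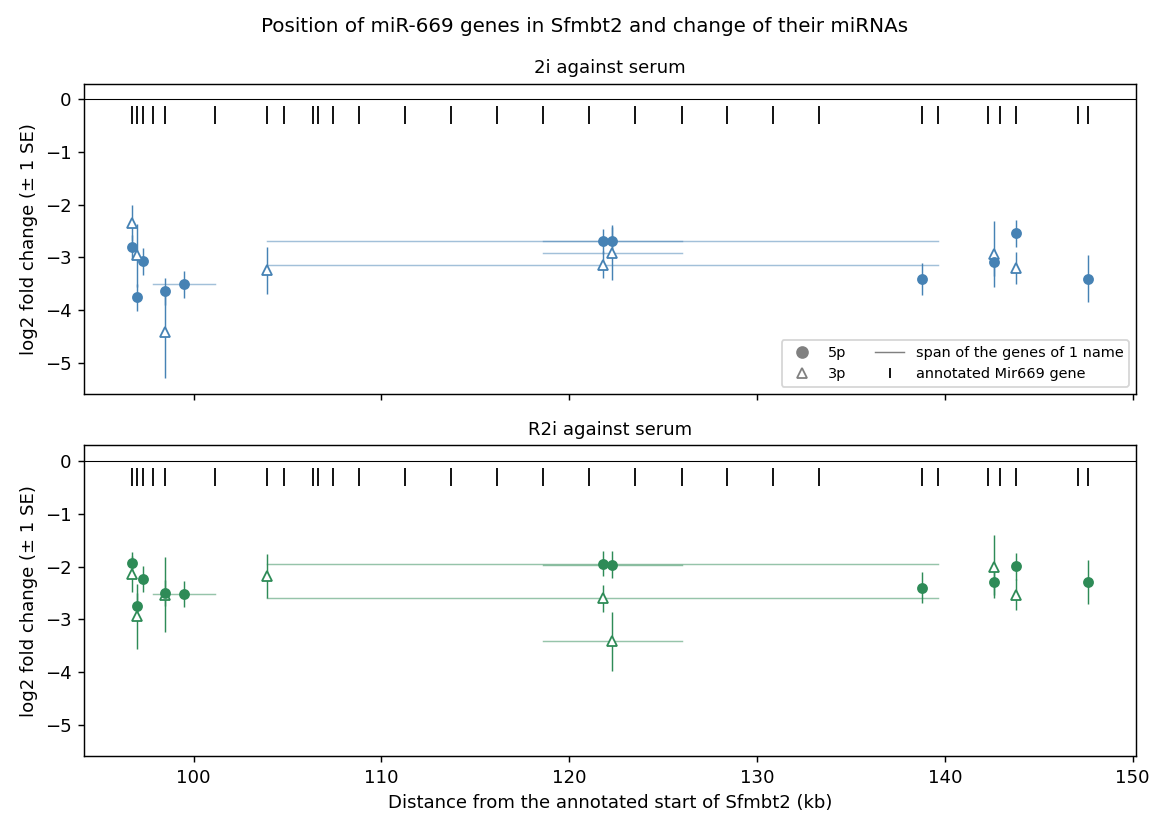
Log2 fold change against serum (± 1 SE) of tested miR-669 members by the distance of their genes from the annotated start of Sfmbt2 in kb, for 2i (upper panel) and R2i (lower panel). Circles are 5p and open triangles 3p miRNAs, horizontal lines span the genes of 1 name, black ticks mark the 29 genes between 96.7 and 147.6 kb, and all points lie below 0.

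The other 3 families of the array, fixed by the same kind of name rule, are given beside miR-669. In 2i, 9 of 9 tested miR-467, 20 of 23 miR-466 and 5 of 6 miR-297 members were called lower and 0 higher, with median log2 fold changes of -3.22, -2.95 and -3.27. In R2i, 8 of 9, 18 of 23 and 4 of 6 were called lower, with medians of -2.38, -2.22 and -2.34. R2i against 2i gave medians of 0.77, 0.78 and 0.88, with 0 members called. The medians of miR-669, at -3.09, -2.29 and 0.83, lay within the range of the 3 others in each comparison, and no difference between the families was tested. Some genes of these 3 families lie outside the array.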

How the data were processed

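Small RNA was sequenced from 2 ESC lines in 3 media, and the authors deposited whole-number read counts for 1907 mature miRNAs, without normalization, and log2 values for the 1233 with a count. These deposited log2 values could be rebuilt to within 0.005 as the log2 of a library's scaled count plus 1. FastQC 0.11.5, cutadapt 1.3, Bowtie 1.1.2, featureCounts 1.5 and the mm10 build are named in the submitters' processing notes, while the treatment of reads matching several miRNA genes is not given in the sources used here. Totals per library ranged from 1041858 to 3593356 counts, and 805 to 964 miRNAs had a count. The 5 most abundant miRNAs took 45.8% to 49.6% of each library. 0 other columns of values were left unused.

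Counts were tested with edgeR 4.0.16 in R 4.3.3 over all 1907 miRNAs: filterByExpr (minimum count 10, minimum total 15), which kept 571, TMM normalization, 1 coefficient per medium over all 6 libraries, and the quasi-likelihood test with Benjamini-Hochberg adjustment. The common biological coefficient of variation was 24.6%. A call needed a change of over 2-fold with an adjusted p under 0.01. Standard errors were derived from the fold change and its F statistic. CPM of the miR-669 members are TMM-scaled, and within-line differences used an offset of 0.5 CPM. Marker sums and the floors of a count of 0 are CPM of the library totals, without TMM scaling. On simulated counts with 102 of 564 tested miRNAs changed 4-fold, the test recovered 92.2% in 2i against serum and 89.2% in R2i against serum. Groups came from the sample titles. The 2 lines pair the libraries of the media by design, being the same cell line in each medium, and their deviations from the medium means correlated at 0.21 (serum and 2i), -0.13 (serum and R2i) and 0.22 (2i and R2i). The floor of a count of 0 was 3 counts, and intervals of shares are 95% Wilson intervals, those of a ratio of counts exact.

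The members and the lists were chosen with earlier results of these data known. Named in the text were the 12 most abundant members, the 3 with the largest and the 3 with the smallest change in 2i and in R2i, and members called in R2i against 2i or between lines, of which there were none. Members lost or missed in a call and those without the common order of media, such as miR-669m-3p, miR-669a-3-3p and miR-669h-5p, were named after their values were seen. Genes were placed with GENCODE M21. Alternatives were DESeq2 1.42.0, limma 3.58.1 on the deposited log2 values, scaling by library totals, other filters and limits, the cell line as a block, fits to the media compared, and each library left out. Thinning every library to 1041858 counts and TMM without the 4 Sfmbt2 families were added after the data were seen. Summaries used Python 3.11.15 with scipy 1.17.1, and plots used matplotlib 3.10.9.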

Additional observations from a re-analysis of the deposited data

How the results depend on the processing

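The 19 tested members were lower than in serum in 2i, R2i and ground state under each alternative that kept them. Without the filter on low counts 25 were fitted, and miR-669h-3p, with 1 count in all, was not lower. The 12 most abundant kept their calls throughout. The number of members called lower was 13 (at least 10 counts in all libraries, with 13 tested) to 19 in 2i, with 15 to 18 when 1 library was left out, and 13 to 19 in R2i, with 12 to 17 when 1 library was left out. In ground state it was 17 to 18 when 1 library was left out. With the cell line as a replicate block, 16 members instead of 17 were called in R2i against serum, miR-669e-3p being lost, and no other call changed (19 in 2i against serum, 0 in R2i against 2i). For R2i against 2i, 2 members were called by DESeq2, and 6 exceeded 2-fold when no test was asked for. The matching shares of all tested miRNAs are not given here, so these counts describe the members only. The value of miR-669e-3p, R2i against 2i, turned from 0.015 to -0.015 without the filter on low counts, -0.996 with thinned libraries, -0.77 without 2i of RB20 and -0.22 without R2i of RB18, and reached 1.05 without 2i of RB18. That of miR-669f-3p, R2i against 2i, turned from 0.19 to -0.14 without 2i of RB20 and reached 0.51 without 2i of RB18. All these values rest on under 30 counts per library. The ratio of shares between serum and 2i was 7.83 for the family. It was 8.41 for the 3p arms alone, 7.73 for the 5p arms alone and 8.74 without miR-669a-5p. Between serum and R2i the ratio was 4.32 for the family, and 5.45, 4.15 and 4.76 for the same sets in that order. The causes of the changes between settings were not tested. TMM computed without the 4 Sfmbt2 families moved the median of all miRNAs in 2i against serum from -0.03 to -0.17 and that of the miR-669 members from -3.09 to -3.24. Summing members with identical mature sequences was planned but could not be run, as a mature sequence was found for only 1 of the 30 names. The depth limits the 3p members most, and a count of 0 allows up to 2.88 CPM in the smallest library.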
